A study of Mus musculus with 14 samples.

Results

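Lungs of *Mcemp1*-/- mice (knockout, KO) were compared with lungs of *Mcemp1*+/+ mice (wild type, WT) after saline, over all genes of the deposited expression table. The comparison used 6 of the 14 lung RNA libraries of the series, chosen by their genotype and treatment labels, with 3 libraries of saline KO and 3 of saline WT. The other 8 libraries, 4 of OVA KO and 4 of OVA WT, came from lungs challenged with ovalbumin (OVA), an egg white protein used to model allergic asthma. They shared the estimate of the spread and gave a separate KO minus WT difference, that after OVA. Saline lungs received saline in place of OVA for both steps of the schedule. Mice entered the study at an age of 6 to 8 weeks, and those of the OVA groups had injections on days 1, 4 and 7, a first nasal challenge 5 days later and weekly challenges for 8 weeks. All mice were on the C57BL/6 background, and the sources used here do not state the substrain or whether KO and WT lungs came from one litter. The knockout was made by CRISPR-Cas9 editing of zygotes, was present in every tissue, and carried a small deletion in exon 1 that shifts the reading frame. Before the lungs were taken, the study measured airway responsiveness, recovered lavage fluid and perfused the vessels.

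MCEMP1 is a single-pass membrane protein found on mast cells and other myeloid cells. Mast cells are tissue-resident cells that carry granules of histamine and proteases and are armed with IgE, and they depend for growth on stem cell factor (SCF) and its receptor KIT. The study described MCEMP1 as a partner of KIT. The saline comparison gives the difference between the genotypes in lungs that had met no allergen.

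Values were normalized read counts as deposited, and differences were taken as KO minus WT on log2(value + 0.5), a scale that understates the change of genes with low values. A gene was called when its adjusted p in limma was under 0.05. A difference given with its standard error (SE) and no p had an adjusted p of 0.97 or more. By estimate, saline KO libraries held between 48.5M and 54.3M reads and saline WT libraries between 51.6M and 63.8M. Lung markers were high in both genotypes. The type 2 alveolar cell chemokine gene *Cxcl15* stood at 1366 to 1761 normalized counts in saline KO and at 1334 to 1630 in saline WT. On the first principal component of the 6 libraries (33.8% of the variance) the genotypes interleaved, with KO at -16.4, 16.7 and -1.4 and WT at 18.2, 8.7 and -25.7. On the second (27.9%) they were apart, with KO between -19.9 and -4.9 and WT between 6.2 and 21.5. Correlations of log2 values were as high between genotypes (0.991 to 0.996 over 9 pairs of libraries) as within them (0.992 to 0.996 over 6 pairs).

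The targeted gene was lower in every saline KO lung. *Mcemp1* (ENSMUSG00000013974; GRCm38 chromosome 8, 3665754 to 3669259, plus strand) has 7 exons and a longest annotated transcript of 1494 bases. Exon 1 spans 3665754 to 3665836, and its 55 coding bases, 3.68% of that transcript, are shown because the edit was aimed at this exon. The capitals mark the start codon, on the plus strand of chr8:3665782-3665836.
*Mcemp1* exon 1 coding part: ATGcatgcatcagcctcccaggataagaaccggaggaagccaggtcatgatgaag
A gene-wide value reads mainly transcript outside this stretch, so it checks the genotype labels in part only.

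*Mcemp1* stood at 3.499, 3.88 and 4.98 normalized counts in saline KO 1 to 3, against 11.95, 9.92 and 9.84 in saline WT 1 to 3. The groups did not overlap, and the KO mean of 4.12 ± 0.77 was 39.0% of the WT mean of 10.6 ± 1.2 (SD, n = 3 each). The difference was -1.27 on the log2 scale (SE 0.18, adjusted p = 0.012). Transcript was therefore lower but still counted in every KO lung. In OVA lungs the difference was -1.66 (SE 0.16, adjusted p = 0.00017), with 3.73 to 4.88 in the 4 KO lungs and 11.5 to 20.1 in the 4 WT lungs. The saline call held without saline KO 3 (adjusted p = 0.024) but was lost without any other single saline library (adjusted p 0.052 to 0.10), while the difference stayed between -1.40 and -1.17. Of 58 tested genes within 5 Mb of *Mcemp1*, 0 were called, 3 had an unadjusted limma p under 0.05 and 9 did not overlap between the genotypes. Over all genes 0.0832% were called, 3.32% had such a p and 11.4% did not overlap. Nearby members of the *Cd209* family of lectin receptors were not called. *Cd209c* stood at 1.25, 1.22 and 1.19 in KO and 1.58, 2.35 and 2.23 in WT, a KO mean of 59.3% of the WT mean (log2 -0.56, SE 0.21). *Cd209a* differed by -0.29 (SE 0.15), also without overlap, and *Cd209b* by -0.16 (SE 0.14) with overlap.

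Few genes differed between KO and WT lungs after saline. Among the 22828 genes tested, 19 (0.0832%) were called, 17 lower in KO (0.0745%) and 2 higher (0.00876%). In all 19 the 3 KO libraries lay on one side of the 3 WT libraries, which was so for 11.4% of all genes tested. Without adjustment 758 genes (3.32%) had a p under 0.05. The median difference over all genes was 0.01, its median size regardless of sign was 0.08, and 61 genes differed by at least 2-fold, of which 14 were called. No cytokine, chemokine or interferon-induced gene was among the 19. They comprised the targeted gene, 10 genes of chromosome 14, pairs of neighbouring genes on chromosomes 5 and X, the nuclear import gene *Kpna2*, the predicted gene *Gm47917*, the mitochondrial gene *Nnt* and the IgA heavy chain gene *Igha*. The count was 12, 11 and 10 without saline KO 1, 2 and 3, 15, 11 and 14 without saline WT 1, 2 and 3, and 9 of the 19 genes were called in all 6 of these fits. It was 48 with array weights and 20 when the 6 saline libraries were fitted alone, with 19 and 15 of the 19 genes among them.

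**Figure D1:**
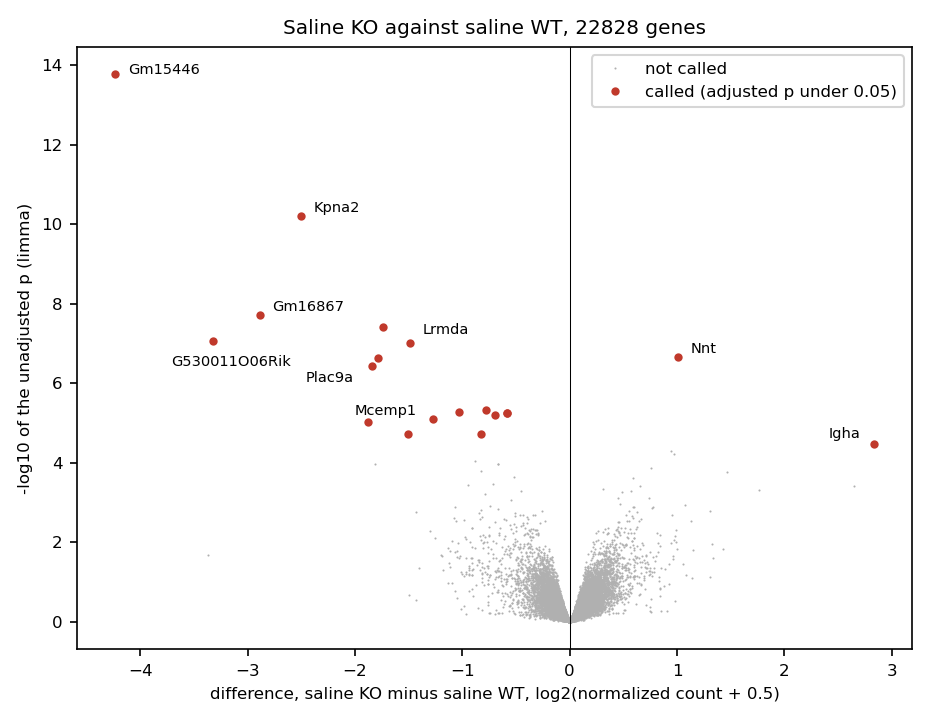
Difference between saline KO and saline WT (x axis, log2) against the -log10 of the unadjusted limma p (y axis) for 22828 genes, with the 19 called genes in red. Of the 19, 17 lie left of zero, led by *Gm15446* at -4.23, and 2 lie right of it, *Nnt* at 1.01 and *Igha* at 2.84.

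Chromosome 14 held 10 of the 19 called genes, all lower in KO. That was 1.22% of its 821 tested genes, against at most 0.273% on any other chromosome. The 10 genes fell into a pair of intervals more than 10 Mb apart. Neither is near *Mcemp1*, which lies on another chromosome. The first interval (GRCm38 chromosome 14, 22019712 to 25990088) held 21 tested genes, of which 4 were called, against 0.0832% of all genes. Both intervals were drawn around the called genes, so a high share called within them was fixed beforehand. *Plac9a*, which encodes a small secreted protein of unknown role in lung, stood at 29.0, 25.3 and 26.5 normalized counts in saline KO 1 to 3, against 71.0, 118 and 110.4 in saline WT 1 to 3. The difference was -1.84 (SE 0.20, adjusted p = 0.00091). Its neighbour *Tmem254a*, a predicted membrane protein gene, stood at 18.0, 16.3 and 17.3 in KO and 43.0, 67.9 and 69.4 in WT (log2 -1.74, SE 0.16, adjusted p = 0.00022). In both genes the KO lungs lay within a narrow band and WT 1 was the lowest WT library.

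*Duxbl1*, a double homeobox gene, was low in all lungs, at 0.497, 0.468 and 0.375 in saline KO and 1.27, 1.503 and 1.54 in saline WT (log2 -1.03, SE 0.14, adjusted p = 0.010). *Lrmda*, a leucine-rich repeat gene of melanocyte development, stood at 0.557, 0.652 and 0.553 in KO and 2.84, 2.16 and 2.68 in WT (log2 -1.49, SE 0.15, adjusted p = 0.00036). *Lrmda* (22019712 to 23056085) lies apart from the other 3 genes, and the genes tested between them were not called. The median difference of the 17 uncalled genes of the interval was -0.02. The neighbours of *Plac9a* were *Anxa11*, which codes for the membrane-binding protein annexin A11 (log2 -0.17, SE 0.07), and *Cphx1*, a homeobox gene (-0.32, SE 0.09). Both were picked out after their values were seen.

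The second interval (69337174 to 69683286) held 13 tested genes, of which 6 were called and 11 did not overlap between the genotypes, against 0.0832% and 11.4% of all genes. *Entpd4* and *Entpd4b* encode a nucleotide-splitting enzyme of the Golgi and lysosomes, and their longest transcripts were identical over all 3589 bases. Reads from them cannot be told apart, so the values are a division by the authors' counting. *Entpd4* stood at 16.4, 17.4 and 17.9 normalized counts in saline KO and 34.9, 31.8 and 26.6 in saline WT (log2 -0.82, SE 0.13, adjusted p = 0.024). *Entpd4b* stood at 16.4, 17.3 and 17.02 in KO and 32.4, 29.3 and 26.5 in WT (-0.78, SE 0.11, adjusted p = 0.010). Summed over both copies the level was 34.2 ± 1.1 in KO and 60.5 ± 7.1 in WT (SD, n = 3 each). Each call was lost when any 1 of saline KO 1, 2 or 3 or saline WT 1 or 2 was left out (adjusted p 0.12 to 0.19 for *Entpd4* and 0.052 to 0.069 for *Entpd4b*).

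*Gm16867* and *Gm27177* are predicted genes on the opposite strand of this interval, and each overlaps the end of an *Entpd4* copy. They share 2846 identical bases. *Gm16867* was close to the floor of the table in KO, at 0.051, 0.058 and 0.135 normalized counts, against 3.59, 3.29 and 4.61 in WT (log2 -2.89, SE 0.25, adjusted p = 0.00015). *Gm27177*, named here after its values were seen, stood at 5.36, 2.46 and 3.49 in KO and 11.8, 14.3 and 15.1 in WT (-1.79, SE 0.19, adjusted p = 0.00065). *Gm27221* and *Gm27176*, likewise named afterwards, have identical transcripts and equal values in all 14 libraries and therefore carry 1 measurement. It was 0.078, 0.048 and 0.042 in KO and 0.277, 0.340 and 0.386 in WT (-0.58, SE 0.08, adjusted p = 0.010). Counting is not stated to use strand, so reads from the short stretches where *Gm16867* overlaps *Entpd4* and *Gm27177* overlaps *Entpd4b* cannot be assigned to either gene. The span of *Gm27177* also overlaps much of that of *Loxl2*, on the opposite strand, with the same limit. *Loxl2* was not called (log2 -0.03, SE 0.22). *Gm27221* lies wholly within the span of *Entpd4*, and *Gm27176* within that of *Entpd4b*, each on the opposite strand, so the same caution covers their values.

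**Figure D2:**
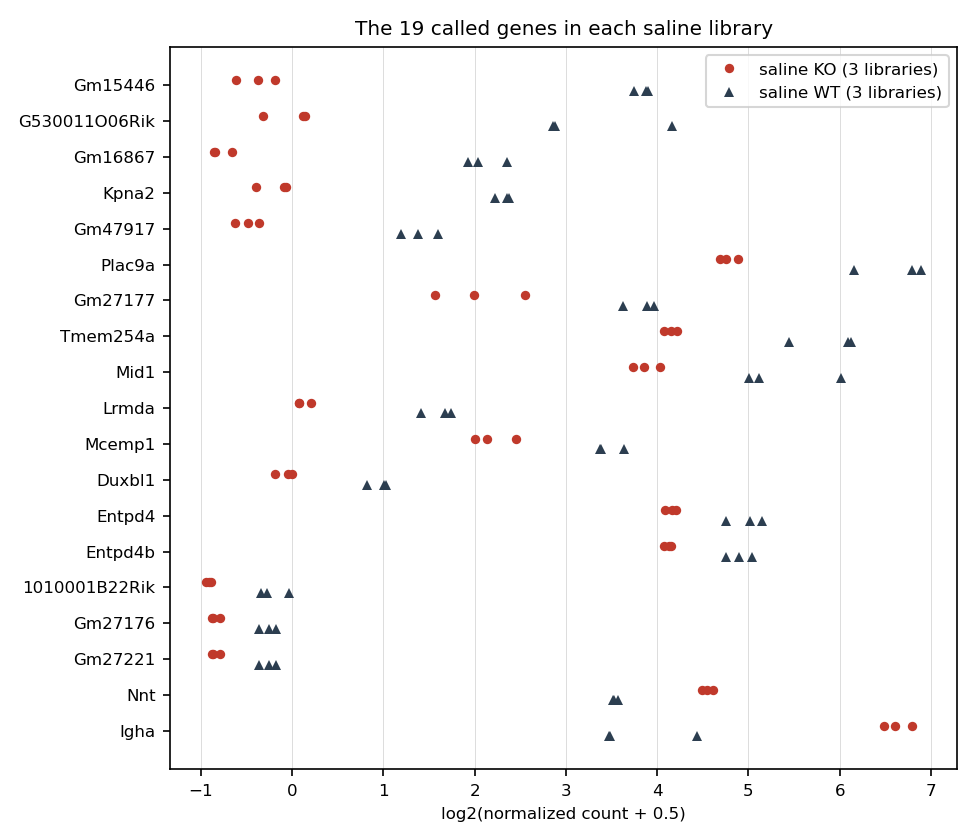
Normalized counts on a log2(value + 0.5) axis of the 19 called genes in each saline library, with circles for the 3 KO and triangles for the 3 WT libraries. No gene overlaps between the genotypes, and *Gm27176* and *Gm27221* plot at the same places because their values are equal.

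The largest difference of all was that of *Gm15446* (chromosome 5, 109923400 to 109943936). It stood at 0.274, 0.378 and 0.153 normalized counts in saline KO and 14.4, 12.9 and 14.2 in saline WT, so that the KO mean was 1.94% of the WT mean (log2 -4.23, SE 0.12, adjusted p = 3.8e-10). A stretch of 1761 bases of its transcript matched that of the zinc finger gene *Zfp932* at 97.4% identity. *Zfp932* itself stood at 23.4, 22.1 and 24.2 in KO and 23.4, 21.9 and 24.5 in WT (log2 -0.00, SE 0.07). Close by on the same chromosome, the noncoding *1010001B22Rik* was at 0.020 to 0.040 in KO and 0.290 to 0.480 in WT (-0.70, SE 0.10, adjusted p = 0.010).

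*Kpna2*, which encodes an importin alpha that carries proteins into the nucleus, stood at 0.261, 0.440 and 0.456 normalized counts in saline KO and 4.71, 4.15 and 4.62 in saline WT. The difference was -2.50 (SE 0.14, adjusted p = 6.9e-07). The near-copy *Gm10184*, named afterwards because 99.9% of 1968 aligned bases are the same, was the more abundant of the pair and stood at 32.4, 28.0 and 30.4 in KO and 34.1, 25.9 and 32.5 in WT (log2 -0.02, SE 0.14). *Kpna2* is usually highest in dividing cells. Of 20 cell cycle genes 0 were called and 0 had an unadjusted p under 0.05, with a median difference of -0.04.

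On the X chromosome *Mid1*, a microtubule-bound ubiquitin ligase gene, stood at 15.8, 12.8 and 13.96 normalized counts in saline KO and 34.2, 64.3 and 31.6 in saline WT (log2 -1.51, SE 0.23, adjusted p = 0.024). *G530011O06Rik*, a noncoding RNA annotated inside *Mid1* on the opposite strand, stood at 0.599, 0.588 and 0.303 in KO and 6.89, 17.3 and 6.76 in WT (-3.32, SE 0.32, adjusted p = 0.00036). WT 2 was the highest library for both. Because counting is not stated to use strand, reads from where *G530011O06Rik* overlaps *Mid1* cannot be assigned to either gene. *Mid1* lost its call without any 1 of the KO libraries (adjusted p 0.092 to 0.19). *Gm47917*, a predicted gene of chromosome 10, was at 0.150 to 0.278 in KO and 1.79 to 2.53 in WT (-1.88, SE 0.27, adjusted p = 0.014). Its call was lost when any saline library other than WT 1 was left out (adjusted p 0.061 to 0.10).

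Many of the called genes had a close copy in the annotation, in part among the called genes themselves. Of the 19, 12 (63.2%) had another gene whose longest transcript matched at least 30% of theirs at 95% identity or more, against 12.4% of all 22754 tested genes with an annotated transcript. On chromosome 14 it was 9 of 10. Both members of a pair were counted, here and over all genes. *Entpd4* and *Entpd4b*, *Gm16867* and *Gm27177*, and *Gm27176* and *Gm27221* were copies of each other, all within the second interval. The copy of *Nnt* was its second identifier, at nearly the same position. These counts are therefore not counts of independent genes. For *Plac9a*, *Tmem254a* and *Duxbl1* the copies (*Gm9780*, *Plac9b*, *Tmem254b*, *Tmem254c*, *Duxbl2* and *Duxbl3*) had no value among the genes analysed here. A value of such a gene depends on how the authors' counting placed reads that match several genes, and the part of this in the differences was not tested.

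*Nnt* and *Igha* were higher in KO. *Nnt* encodes the nicotinamide nucleotide transhydrogenase of the inner mitochondrial membrane, which supplies NADPH for the removal of peroxides. The table lists it under 2 gene identifiers with the same sequence over 3339 bases. Under ENSMUSG00000025453 (chromosome 13, 119335448 to 119408997) it stood at 23.9, 22.8 and 22.03 normalized counts in saline KO and 11.01, 11.4 and 10.95 in saline WT (log2 1.01, SE 0.11, adjusted p = 0.00065). Every KO lung lay above every WT lung by more than the spread within either genotype, and the call held with each saline library left out in turn (adjusted p 0.0055 to 0.0071). The second identifier was not called (log2 0.94, SE 0.16, adjusted p = 0.059), at 12.8, 17.5 and 16.8 in KO and 7.28, 8.46 and 7.94 in WT. Summed over both, *Nnt* was 38.6 ± 1.8 in KO and 19 ± 0.77 in WT (SD, n = 3 each). Of 40 tested genes within 5 Mb of *Nnt*, 0 others were called.

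*Nnt* was on a list of 11 genes known to differ in sequence or expression between C57BL/6 substrains, of which 10 were tested and *Gabra2* was not. C57BL/6J mice carry a deletion of several *Nnt* exons that C57BL/6N mice lack. Of the 11 identifiers tested, *Nnt* being listed under both of its own, 3 were called, *Nnt* higher and *Entpd4* and *Entpd4b* lower, and the median difference was 0.24, against 0.01 over all genes. *Wdfy1*, an endosomal adaptor gene of Toll-like receptor signalling, stood at 84.7, 78.1 and 85.2 in KO and 41.9, 45.4 and 60.0 in WT (log2 0.76, SE 0.14, adjusted p = 0.12). *Nlrp12*, an inflammasome family gene, differed by 0.75 (SE 0.34), *Crb1* by -0.25 (SE 0.23), *Cyfip2* by -0.12 (SE 0.40) and *Ide* by 0.01 (SE 0.14). Genetic differences between the KO and WT mice other than the edited allele cannot be told apart from the genotype in this design.

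*Igha*, the constant region of the IgA heavy chain, had the largest rise. It stood at 97.2, 111 and 89.2 normalized counts in saline KO 1 to 3 and at 10.6, 10.7 and 21.1 in saline WT 1 to 3. The KO mean of 99.04 ± 10.85 was 701% of the WT mean of 14.1 ± 6.0 (SD, n = 3 each), and the difference was 2.84 on the log2 scale (SE 0.46, adjusted p = 0.041). The call was close to the threshold and was lost without any 1 of the 6 saline libraries (adjusted p 0.060 to 0.25). *Jchain*, which joins IgA and IgM into polymers, was at 60.1, 57.2 and 53.5 in KO and 7.58, 6.27 and 13.5 in WT, with a difference of 2.65 that did not pass in the fit of all libraries (SE 0.56, adjusted p = 0.26). Both genes varied widely among the OVA lungs, which share the estimate of the spread in that fit. In the fit of the 6 saline libraries alone the adjusted p was 0.014 for *Igha* and 0.014 for *Jchain*, and the kappa constant region *Igkc* was called as well (log2 1.05, adjusted p = 0.0015). *Igkc* stood at 115.5, 112.8 and 105.3 in KO and 56.0, 53.2 and 51.0 in WT, and its adjusted p was 1.00 in the fit of all libraries.

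No other heavy chain class was called, and the classes were not tested against each other. *Ighm*, of IgM, was at 59.2 to 74.8 in KO and 74.0 to 88.6 in WT (log2 -0.31, SE 0.70). *Ighg1*, of IgG1, was at 0.158 to 0.258 in KO and 0.510 to 1.25 in WT (-1.01, SE 1.36). *Ighg2c*, of IgG2c, lay on the same side as *Igha* without overlap, at 0.927, 1.97 and 1.41 in KO and 0.591, 0.313 and 0.495 in WT, so that the KO mean was 308% of the WT mean (0.98, SE 0.92). *Ighg2b* differed by 0.39 (SE 0.51) and *Ighe*, of IgE, by 0.01 (SE 0.32), the last at no more than 0.040 in any saline lung. Of 165 immunoglobulin segments tested, *Igha* was the 1 called, 145 had a fitted value above WT, as did 52.4% of all genes, and 67 did not overlap in that direction, as did 5.81% of all genes. The median segment differed by 0.23. Summed over all of them the level was 391.9, 388 and 357 in KO and 231, 229 and 224 in WT. Segments share sequence and arise from the same cells, so they are not independent of each other.

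Genes that mark plasma cells, which secrete antibody, were mostly close to WT apart from *Jchain*. Of 13 tested, 0 were called and the median difference was 0.17. *Prdm1*, the transcription factor of plasma cells, differed by 0.32 (SE 0.17), *Tent5c* by 0.32 (SE 0.21), *Mzb1* by 0.17 (SE 0.45) and *Xbp1* by -0.06 (SE 0.08). The list score, the mean log2 value of its genes, was 3.97 to 4.04 in KO and 3.67 to 3.71 in WT. It includes *Jchain*, whose difference of 2.65 was the largest of the 13, so the score does not show a shift across the list. Of 14 B cell genes 0 were called, with a median of -0.23, and *Cd79a*, a signalling chain of the B cell receptor, differed by -0.36 (SE 0.49). In bulk lung, a change in the number of cells of a type and a change in RNA per cell cannot be told apart.

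**Figure D3:**
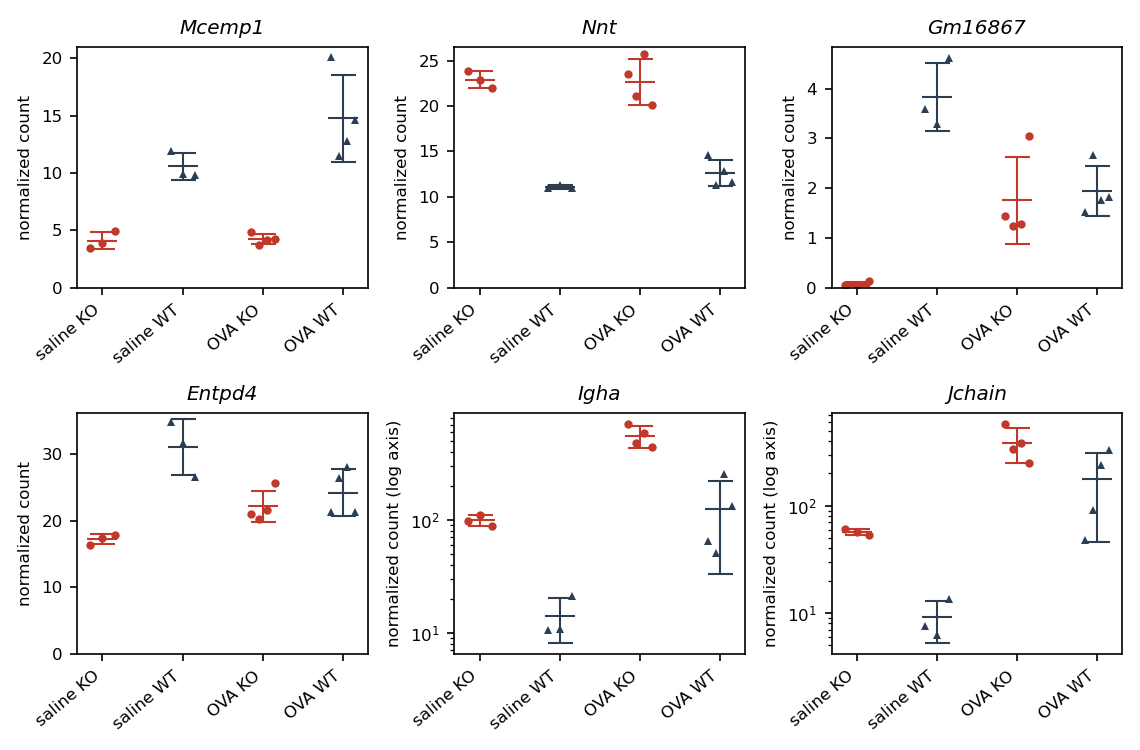
Normalized counts of *Mcemp1*, *Nnt*, *Gm16867*, *Entpd4*, *Igha* and *Jchain* in each library of the 4 groups, with bars for the mean and SD (n = 3 saline and 4 OVA libraries per genotype) and log axes for *Igha* and *Jchain*. *Gm16867* lies at 0.051 to 0.135 in saline KO but at 1.24 to 3.05 in OVA KO, whereas *Mcemp1*, *Nnt* and *Igha* separate the genotypes after both treatments.

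The mast cell program, in which MCEMP1 was studied, showed no called gene. Of 13 mast cell genes tested, 0 were called in limma and 1 had an unadjusted p under 0.05, the median difference was 0.03 and the list score was 1.80 to 1.83 in KO and 1.68 to 1.99 in WT. The granule protease gene *Mcpt4* was at 0.318, 0.384 and 0.316 normalized counts in saline KO and 0.650, 0.435 and 0.615 in saline WT (log2 -0.34, SE 0.15). The tryptase gene *Tpsb2* was at 0.020 to 0.117 in KO and 0.060 to 0.310 in WT (-0.27, SE 0.14). *Cpa3* (0.13, SE 0.27), *Cma1* (0.02, SE 0.18), *Fcer1a* (0.06, SE 0.19) and *Ms4a2* (0.06, SE 0.23), all mast cell products, were at or below 1.03 in every saline lung. At values this low a mast cell difference may not be detectable in whole lung. *Kit* (0.08, SE 0.21), *Hdc* and *Gata2* were abundant, but other lung cells express them too. Of 24 genes of KIT and SCF signalling 0 were called and 0 had an unadjusted p under 0.05, with differences between -0.10 and 0.21. *Kitl*, which encodes SCF, stood at 289, 305 and 314 in KO and 318, 290 and 208 in WT (0.17, SE 0.17). The adaptor gene *Gab2* differed by 0.21 (SE 0.17), *Plcg1* by 0.14 (SE 0.11) and the ubiquitin ligase gene *Cbl* by 0.11 (SE 0.10).

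Among other leukocyte lists, neutrophil genes had the highest medians. Of 14 tested 0 were called, 6 had an unadjusted p under 0.05, all higher in KO (1.64% of all genes had such a p and direction), and the median difference was 0.66. The calprotectin gene *S100a9* stood at 70.0, 145 and 105 normalized counts in KO and 59.7, 35.8 and 25.0 in WT (log2 1.43, SE 0.51, adjusted p = 1.00). *Csf3r*, the receptor for the neutrophil growth factor G-CSF, stood at 33.9, 57.03 and 36.4 in KO and 27.3, 21.995 and 14.03 in WT (1.00, SE 0.36). *Retnlg* differed by 0.99 (SE 0.33) with overlapping groups. KO 2 was the highest and WT 3 the lowest library for *S100a9* and *Csf3r*.

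NK and cytotoxic genes (13 tested) had a median of 0.36, and 6 of them did not overlap, all higher in KO, against 5.81% of all genes. The NK receptor gene *Klra8* stood at 7.33, 5.75 and 5.90 in KO and 3.61, 5.16 and 4.04 in WT (0.52, SE 0.18), *Klre1* differed by 0.46 (SE 0.16) and the granzyme gene *Gzma* by 0.49 (SE 0.22). All 16 T cell genes had fitted values above WT, as did 52.4% of all genes, with a median of 0.31, and 8 did not overlap, against 5.81% of all genes. *Il7r* differed by 0.39 (SE 0.25), *Cd6* by 0.55 (SE 0.44) and *Cd28* by 0.39 (SE 0.31). None of these list genes was called.

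Macrophage, dendritic cell and allergic effector genes lay near WT. Medians were 0.08 for 16 alveolar macrophage genes, -0.10 for 16 monocyte and interstitial macrophage genes, -0.18 for 11 genes of alternative activation, 0.02 for 15 dendritic cell and MHC class II genes and -0.06 for 17 eosinophil and type 2 genes, with 0 called in each and an unadjusted p under 0.05 in 1 gene of the first and 1 of the last list. The scavenger receptor gene *Marco* stood at 12.7, 16.1 and 14.1 in KO and 8.17, 7.06 and 11.5 in WT (log2 0.67, SE 0.26). *Il1rl1*, which encodes the receptor for the alarmin IL-33, stood at 5.59, 5.70 and 4.96 in KO and 7.96, 8.84 and 5.44 in WT (-0.40, SE 0.15). Interferon response (24 genes, median 0.06), inflammatory chemokine (15 genes, 0.07) and complement genes (16 genes, 0.13) also held 0 calls. The monocyte chemokine gene *Ccl2* differed by -0.50 (SE 0.24), the complement genes *C3*, *Cfb* and *C2* by 0.40 (SE 0.21), 0.69 (SE 0.37) and 0.55 (SE 0.26), and *Oas3* by 0.61 (SE 0.31). Medians were 0.15 for 11 core genes, a list the study had chosen on these samples and so no independent evidence, and -0.09 for the 6 genes it measured by PCR.

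Structural cells of the lung showed no called gene either. Type 2 alveolar genes had a median of 0.02 over 13 genes, club cell genes -0.07 over 12, ciliated cell genes -0.15 over 15, endothelial genes -0.05 over 18 and fibroblast and collagen genes -0.07 over 18. Type 1 alveolar genes had a median of -0.41 over 11, and in these 6 lists 0 genes had an unadjusted p under 0.05. All 15 ciliated cell and all 11 type 1 alveolar genes had fitted values below WT, where 52.4% of all genes lay above it. Of them 5 ciliated cell genes and 1 type 1 gene did not overlap, against 5.54% of all genes in that direction. Smooth muscle genes had a median of -0.11 over 11, likewise all with fitted values below WT, and 3 did not overlap. Of these *Tagln*, the actin-binding transgelin gene, had an unadjusted p under 0.05 and stood at 68.7, 63.5 and 57.5 in KO and 78.5, 73.6 and 89.4 in WT (-0.35, SE 0.16). *Ager*, the type 1 cell receptor gene, stood at 356, 673 and 425 in KO and 769, 624 and 722 in WT (log2 -0.59, SE 0.31), and KO 2 overlapped with WT 2. Mucous genes varied between lungs, and *Clca1* stood at 5.53, 1.00 and 4.96 in KO and 9.07, 1.25 and 57.1 in WT (-1.43, SE 1.26). Of 15 immediate early genes, which follow handling and stress, 0 were called with a median of -0.25, and *Nr4a1* differed by -0.56 (SE 0.28). Of 17 stress genes 0 were called and 2 had an unadjusted p under 0.05, both lower in KO. The heat shock gene *Hspa1b* differed by -0.91 (SE 0.32) and *Hspa1a* by -0.77 (SE 0.34).

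The list that stood farthest from WT was that of cardiac muscle, which in mice extends along the pulmonary veins into the lung. Of 14 tested genes 13 did not overlap and were lower in KO, against 5.54% of all genes, 9 had an unadjusted p under 0.05, against 1.68% in that direction, and 0 were called. The median difference was -0.97 and the score was 3.84 to 4.82 in KO and 5.33 to 5.96 in WT. *Nppa*, the atrial natriuretic peptide gene, stood at 0.502, 3.51 and 3.84 in KO and 48.3, 10.8 and 34.3 in WT (log2 -3.37, SE 1.28, adjusted p = 1.00). *Myh6*, the cardiac myosin heavy chain gene, stood at 102, 274 and 187 in KO and 284, 412 and 438 in WT (-1.10, SE 0.64). *Myh6* thus stood far above the lowest value of its column in every saline lung. The deposited values hold no 0, so a value near the floor does not separate absence from a low level. In OVA lungs the 14 genes of the list had a median difference of 1.02, in the opposite direction. Adipocyte genes had a median of -0.54 over 11 genes, with scores of 3.07 to 3.66 in KO and 3.46 to 4.39 in WT. Erythroid scores were 5.05, 1.29 and 5.10 in KO and 1.68, 3.89 and 3.58 in WT and overlapped. When the heart muscle score was added to the fit as a covariate, 13 genes were called, 11 of them among the 19, and *Mcemp1*, *Nnt*, *Kpna2*, *Gm15446* and the 4 genes of the first chromosome 14 interval kept their calls. *Igha*, *Entpd4*, *Entpd4b*, *Mid1*, *Gm47917*, *1010001B22Rik*, *Gm27176* and *Gm27221* did not (adjusted p 0.059 to 0.29), though their differences stayed near those without the covariate, at 2.96 for *Igha*, -0.74 for *Entpd4*, -0.72 for *Entpd4b*, -1.66 for *Mid1*, -1.68 for *Gm47917*, -0.70 for *1010001B22Rik* and -0.63 for *Gm27176* and *Gm27221*.

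**Figure D4:**
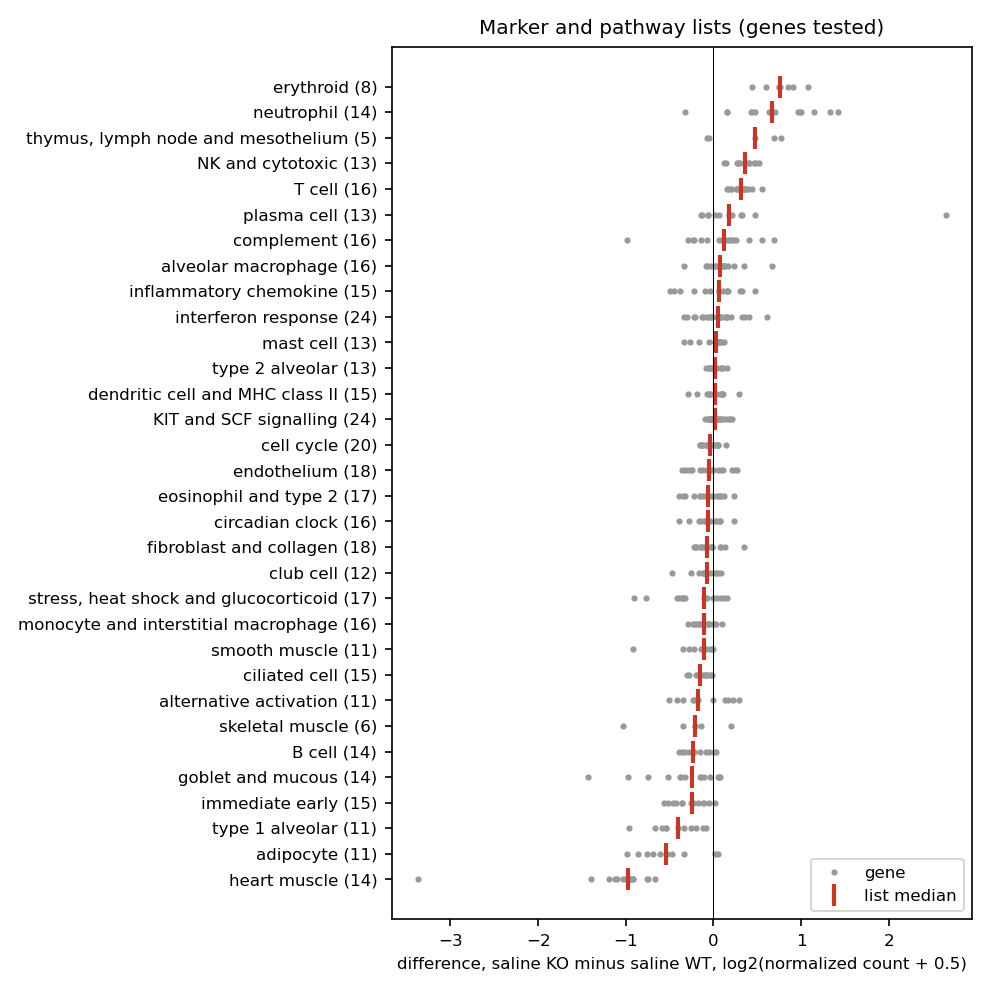
Difference between saline KO and saline WT (x axis, log2) for each tested gene of the marker and pathway lists (grey points, number of genes in brackets), with the list median as a red bar. The heart muscle median lies at -0.97 and the neutrophil median at 0.66, while the mast cell and KIT lists lie at 0.03 and 0.02.

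The OVA libraries gave the same comparison in other lungs. There 88 genes (0.385%) were called, 42 higher in KO and 46 lower. Over all genes the saline and OVA differences had a Pearson correlation of 0.096. All 19 genes called after saline had a difference of the same sign after OVA, as did 54.4% of all genes. Of the 19, 13 were also called after OVA, which was 68.4% of the saline calls and 14.8% of the OVA calls. These were *Mcemp1*, *Gm15446*, *1010001B22Rik*, *G530011O06Rik*, *Mid1*, *Kpna2*, *Gm47917*, *Plac9a*, *Tmem254a*, *Lrmda*, *Duxbl1*, *Nnt* and *Igha*. *Gm15446* differed by -4.48 (SE 0.11, adjusted p = 2.6e-11) after OVA, *Kpna2* by -2.12 (SE 0.12, adjusted p = 9.2e-07), *Plac9a* by -2.44 (SE 0.17, adjusted p = 1.6e-05) and *Nnt* by 0.82 (SE 0.09, adjusted p = 0.00091). *Igha* stood at 712, 481, 588 and 444 in OVA KO and 65.4, 50.5, 256 and 134 in OVA WT (2.40, SE 0.40, adjusted p = 0.029). For none of these 13 genes did the difference between treatments pass the threshold (adjusted p 0.65 to 0.96).

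The 6 genes called after saline alone were those of the second chromosome 14 interval, and of its 13 tested genes 0 were called after OVA. *Entpd4* stood at 20.3 to 25.6 in OVA KO and 21.3 to 28.0 in OVA WT (log2 -0.12, SE 0.11, adjusted p = 0.59). *Entpd4b* differed by -0.23 (adjusted p = 0.21) and *Gm27177* by -0.77 (adjusted p = 0.061). *Gm16867* stood at 1.45, 1.24, 1.27 and 3.05 in OVA KO and 1.52, 2.66, 1.76 and 1.83 in OVA WT (-0.16, SE 0.21, adjusted p = 0.72). Its saline difference minus its OVA difference was -2.73 (adjusted p = 0.025), the 1 gene of 22828 (0.00438%) past the threshold in this test, where 1602 (7.02%) had an unadjusted p under 0.05. The same test gave -0.70 for *Entpd4*, -0.54 for *Entpd4b* and -1.01 for *Gm27177* (adjusted p = 0.55 for each). The levels of both genotypes were thus apart in saline lungs and overlapped in OVA lungs for *Entpd4* and *Gm16867*, while those of *Entpd4b* (19.5 to 20.98 in OVA KO and 21.2 to 27.7 in OVA WT) and *Gm27177* did not overlap after either treatment. Reads of *Entpd4* and *Entpd4b* cannot be told apart, so a contrast between these copies reflects how the authors' counting divided them. *Gm16867* and *Gm27177* share 2846 identical bases, so their values depend in part on such a division too. The gene past the threshold in the test between treatments was *Gm16867*. Its call in that test was lost without any 1 of the 6 saline libraries, OVA KO 1, OVA WT 1 or OVA WT 3. Saline and OVA lungs came from different mice. Inherited differences between the saline and OVA mice of a genotype therefore cannot be told apart from an effect of treatment in this design.

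**Figure D5:**
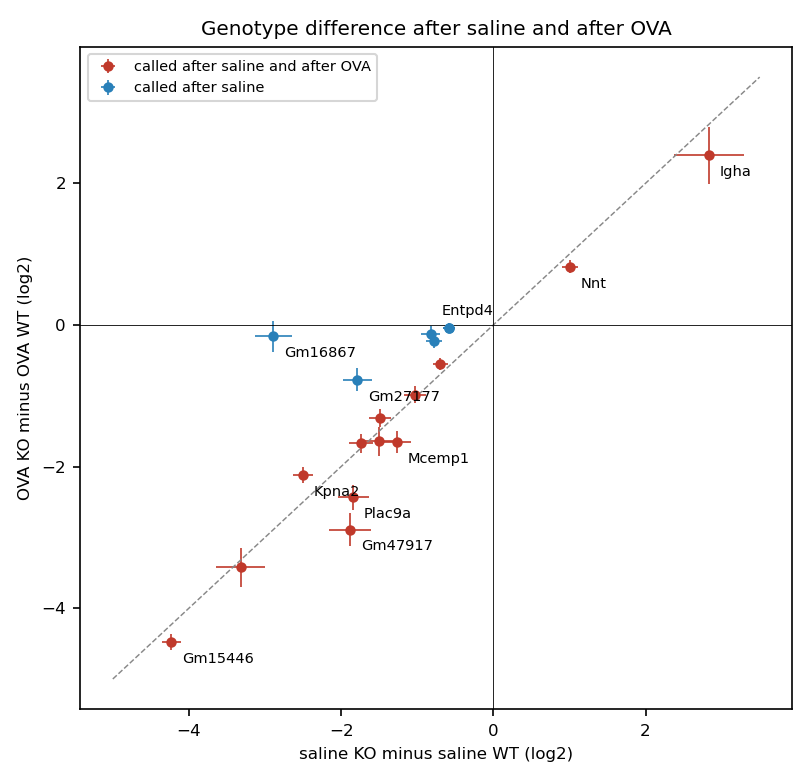
Genotype difference after saline (x axis) and after OVA (y axis), both as KO minus WT on the log2 scale, for the 19 genes called after saline, with bars of 1 SE and a dashed line of equality. The 13 genes called under both treatments (red) lie on both sides of the line, *Gm47917* below it at -1.88 and -2.89, and the 6 genes of the second chromosome 14 interval (blue) all lie above it, *Gm16867* at -2.89 and -0.16.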

How the data were processed

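RNA from lung tissue was made into libraries with the KAPA mRNA HyperPrep kit and sequenced on a NovaSeq instrument. Per the labels, the authors used STAR, mm10 and Partek; the methods of the study name Partek Flow 10.0. The deposited table holds a signal for 24270 genes, called normalized counts, whose normalization is not given in the sources used here. Between 72.2% and 75.7% of low values lay within 0.1 of a whole multiple of a column's lowest value, so the values were not treated as counts. Dividing a column total (907121 to 976143 in saline libraries) by its lowest value gave the estimated depth. Columns were matched to libraries through the sample titles.

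The table was analysed as log2(value + 0.5). A gene was kept (22828 in all) when 3 or more libraries held at least 0.2 ppm of their total for it. A linear model of the 4 groups was fitted to 14 libraries in limma 3.58.1 under R 4.3.3 (trend and robust), with 2-sided tests and Benjamini-Hochberg adjustment over all genes kept, in place of Partek's own test, which was not run here. On simulated data of the saline comparison (22828 genes) 200 genes were changed, all drawn from the 16876 with a mean above 1 normalized count. The fit recovered 72% of those changed 2-fold and 96% of those changed 4-fold, with 10 false calls. Recovery of genes with lower values was not tested. With no gene changed the fit gave 2 false calls. An exact permutation test of 3 against 3 cannot give a p under 0.1. Nothing in the labels says whether the samples of a group came from separate litters or cages, so p-values measure the spread between these samples.

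Of the gene identifiers, 24165 (99.6%) were found in GENCODE M21, which gave GRCm38 coordinates and the exon sequence. Coordinates in the table belong to another, unnamed build and are not printed. Copies were sought with BLAST 2.17.0 (megablast, longest transcript per gene, same strand). Up to 12 rises and 12 falls among called genes, called list members and otherwise up to 3 members per list were named, and predicted genes and segments when also called after OVA. Members and lists were chosen with earlier results of these data known. Alternatives covered scaling, pseudocount, filter, model, covariates and left-out libraries.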

Additional observations from a re-analysis of the deposited data

Results flagged for a closer look

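In OVA KO 4, *Gm16867* stood at 3.05 normalized counts, apart from 1.24 to 1.45 in the other 3 OVA KO libraries. In OVA KO 1, *Gm47917* stood at 0.319, apart from 0.127 to 0.143 in the others. In OVA WT 1, *Duxbl1* stood at 1.77, apart from 1.16 to 1.25 in the others. These 3 samples stood out by Dixon's test among 38 groups examined, and chance alone marks about 1 group in 20.

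The saline genotype difference of *Gm16867* minus its OVA difference was -2.73 on the log2 scale (limma interaction term, adjusted p = 0.025). All 3 saline KO libraries (0.051 to 0.135) lay below all 3 saline WT libraries (3.29 to 4.61), while OVA KO (1.24 to 3.05) and OVA WT (1.52 to 2.66) overlapped.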

How the results depend on the processing

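All 19 called genes kept their direction under every alternative run. The saline count stayed between 16 and 23 under other scalings, pseudocounts and filters, without trend and robust fitting, in the saline libraries alone and with an adipocyte or ciliated cell score as covariate. It was 48 with array weights (18 higher and 30 lower in KO), 13 with the heart muscle score as covariate and 10 with the replicate block. The count in both treatments was 8 with the heart muscle score as a covariate. *Gm16867*, the gene differing between treatments, was lost with a pseudocount of 2 or with the heart muscle or adipocyte score as a covariate, leaving 0 genes in each. With 1 library left out at a time, the saline count was 10 to 21, the count in both treatments 8 to 14, the count differing between treatments 0 to 2 and the *Mcemp1* difference -1.40 to -1.17. With both airway-rich OVA libraries (OVA KO 3 and OVA WT 2) left out, an alternative chosen after seeing the data, the saline count was 22. The causes were not tested. Depth limits genes with values near the floor of the table, such as *Gm27176*, *Gm27221* and *1010001B22Rik*, whose differences rest on few reads.

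With the replicate number as a replicate block, 10 genes were called after saline, 8 in both treatments and 0 differing between treatments. With the replicate block in the 6 saline libraries alone, 16 were called and *Mcemp1* differed by -1.27 (adjusted p = 0.080). Same-numbered saline libraries correlated at -0.23, 0.17 and 0.03 in their deviations from the group means, so the numbers were not taken to pair them.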

Other observations

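A few uncalled genes were picked out after their values were seen. They were not the nearest to the threshold, since *Marchf10*, a ubiquitin ligase gene, had a lower limma adjusted p of 0.066 (log2 0.98). *Scart1*, a scavenger receptor gene of gamma delta T cells, stood at 4.45, 5.93 and 5.18 normalized counts in saline KO and 1.09, 2.06 and 1.62 in saline WT (log2 1.46, SE 0.28, limma adjusted p = 0.14). In OVA lungs its difference was 1.21 (adjusted p = 0.054). *Tmem267*, a gene of chromosome 13 beside *Nnt*, stood at 18.0, 27.5 and 15.1 in saline KO and 4.65, 7.49 and 4.51 in saline WT (1.76, SE 0.39, adjusted p = 0.31), and its difference in OVA lungs was -0.02 (adjusted p = 0.98). *Smim6*, a small membrane protein gene, stood at 4.83, 13.7 and 4.57 in saline KO and 21.5, 23.2 and 31.3 in saline WT (-1.81, SE 0.33, adjusted p = 0.099), against -0.38 in OVA lungs. *Stab2*, a hyaluronan scavenger receptor gene of sinusoidal endothelium, stood at 0.616, 0.719 and 0.810 in saline KO and 1.86, 2.10 and 1.30 in saline WT (-0.88, SE 0.16, adjusted p = 0.092). None of these genes was called, and their saline groups did not overlap.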
